A study of Mus musculus with 12 samples.

Results

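Described here are 9 of the 31053 genes counted in T cells of the pancreatic islets of NOD mice: Ptpn22, Ptpn2, Ubash3a, Cd226, Tagap, Sh2b3, Clec16a, Ikzf1 and Ikzf3. They were listed because they are the mouse counterparts of genes at known human type 1 diabetes risk loci. All mice were NOD females, a strain that develops autoimmune diabetes spontaneously, at an age of 12 weeks and before diabetes. No treatment, transgene or other strain is named in the labels, so every value is a level in this 1 strain and none bears on risk alleles. Live cells positive for the β chain of the T cell receptor had been sorted from islets, and 4 biological replicates were profiled by CITE-seq, a droplet method that reads transcripts together with DNA-tagged antibodies. Whether a replicate was 1 mouse or pooled mice is not given, so p-values measure the spread between these 4 libraries. The T cell receptor sequences of the same cells were read in parallel libraries.

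Cells were grouped by antibody counts for CD4 and CD62L, by mRNA of Cd8a, Cd8b1 and Foxp3, and by clone size. CD8 cells had an antibody CD4 count under 20 and at least 2 UMIs of Cd8a and Cd8b1 together, where a UMI stands for 1 captured molecule. CD4 conventional cells had an antibody CD4 count of at least 40 and no UMI of Cd8a, Cd8b1 or Foxp3. Regulatory T cells (Treg) met the same limits with at least 1 Foxp3 UMI. Each lineage was split into CD62L-low (antibody count of at most 3) and CD62L-high (at least 10). CD62L is the homing receptor with which naive and central memory T cells enter lymph nodes, and activated T cells shed it. Cells with a paired receptor were also split into single clones, seen in 1 cell of their library, and expanded clones, seen in 2 or more.

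The products of these genes act at several levels of T cell control. Ptpn22 (the phosphatase Lyp or PEP) dephosphorylates Lck and ZAP-70 and so dampens signals of the T cell receptor, and Ubash3a (STS-2) is an adaptor that restrains the same signals. Ptpn2 (TC-PTP) removes phosphate from Janus kinases, STAT proteins and Lck. Cd226 (DNAM-1) is an activating receptor that shares its ligands with the inhibitory receptor TIGIT. Sh2b3 (LNK) is an adaptor that limits cytokine receptor signals, Tagap is a GTPase-activating protein induced upon T cell activation, and Clec16a takes part in mitophagy and endosomal traffic. Ikzf1 (Ikaros) and Ikzf3 (Aiolos) are zinc finger transcription factors of lymphocytes that can form dimers with each other.

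The libraries of replicates 1 to 4 held 26861163 to 37834174 RNA UMIs in 4136 to 8718 barcodes, of which 3372 to 7395 were kept. Replicates 3 and 4 stood apart from replicates 1 and 2: their kept barcodes had median depths of 2796 and 2584 UMIs against 3846 and 4221, and 37.4% and 30.6% of them had under 20 counts of antibody CD11a, against 4.12% and 5.34%. Within the populations described here these shares were 1.38% to 7.87%. Between 36 and 102 barcodes were shared by any 2 libraries. Levels are given as CPM, the UMIs of a gene per 1000000 UMIs of a population in 1 library. The summed level of T cell markers lay between 3388 and 5383 CPM in all populations. The 2 CD8 markers were at 0 in CD4 conventional cells and Treg, as the rule requires, and the 6 Treg markers together lay at 2800.4 to 3187 CPM in CD62L-low Treg and 663 to 850.02 in CD62L-low CD4 conventional cells. These 6 include Foxp3, by which the rule splits the cells, at 294 to 355 CPM in CD62L-low Treg and 0 in CD62L-low CD4 conventional cells. That part of the gap was set by the rule. In CD62L-high CD4 conventional cells the 6 Treg markers together lay at 190 to 349 CPM. A Treg whose Foxp3 transcript was not captured would count as a CD4 conventional cell. How many such cells there were was not tested. B cell markers together stayed at 2.73 to 27.4 CPM, against 5514 to 6732 in barcodes of B cells, which had at least 3 B cell marker UMIs, no CD3 UMI and no receptor chain and serve as a background. Kept T cell barcodes needed a CD3 UMI and under 3 B cell marker UMIs, so the levels of T cell and B cell markers were also set in part by the filters.

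Ptpn22 and Ubash3a were higher and Ikzf1 was lower in CD62L-low than in CD62L-high CD4 conventional cells, and the promoters of these 3 genes are shown because they moved with CD62L in opposite directions. Each window runs from 250 bases before to 50 after a transcript start in RefSeq (build GRCm38.p6), 5′ to 3′ on the gene's strand, and is the most upstream of the windows listed for that gene. The gene spans given further on can begin before it. Capitals mark matches on either strand to the core motifs Ikaros TGGGAA, RUNX TGTGGT, NFAT TGGAAA, AP-1 TGANTCA, ETS AGGAAG, KLF or SP GGGCGG and TCF or LEF CTTTGA, some of which can overlap.
Ptpn22, chr3:103859545-103859844, plus strand: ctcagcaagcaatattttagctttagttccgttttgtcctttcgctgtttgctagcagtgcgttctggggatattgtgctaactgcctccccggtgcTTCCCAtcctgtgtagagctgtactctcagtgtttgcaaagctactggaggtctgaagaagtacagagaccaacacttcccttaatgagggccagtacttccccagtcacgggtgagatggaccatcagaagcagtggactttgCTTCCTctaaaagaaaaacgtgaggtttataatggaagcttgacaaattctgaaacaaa
Ubash3a, chr17:31207816-31208115, plus strand: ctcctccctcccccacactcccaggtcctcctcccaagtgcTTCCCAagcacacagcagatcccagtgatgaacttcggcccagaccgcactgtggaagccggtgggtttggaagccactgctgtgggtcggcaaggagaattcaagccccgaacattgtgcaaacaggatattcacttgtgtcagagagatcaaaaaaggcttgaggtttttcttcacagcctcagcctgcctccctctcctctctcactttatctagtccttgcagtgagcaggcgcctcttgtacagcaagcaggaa
Ikzf1, chr11:11685675-11685974, plus strand: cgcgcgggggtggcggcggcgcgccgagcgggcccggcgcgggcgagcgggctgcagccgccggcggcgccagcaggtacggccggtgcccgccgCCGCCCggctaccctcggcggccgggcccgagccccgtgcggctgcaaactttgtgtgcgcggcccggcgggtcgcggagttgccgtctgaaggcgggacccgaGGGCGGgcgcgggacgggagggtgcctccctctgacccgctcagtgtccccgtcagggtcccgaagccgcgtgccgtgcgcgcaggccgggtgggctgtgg
The Ptpn22 window held 1 Ikaros and 1 ETS match, that of Ubash3a 1 Ikaros match and that of Ikzf1 2 KLF or SP matches. Among 32851 mouse promoter windows of the same length, 25.6% held the Ikaros letters, 35.4% the ETS letters and 35.7% the KLF or SP letters, so these matches are common. Windows were also listed for Tagap, Clec16a and Sh2b3, with 7, 4 and 0 matches in all. In the same build Ptpn22 spans chromosome 3, positions 103856575 to 103912252, Sh2b3 chromosome 5, positions 121815481 to 121837645, and Ikzf1 and Ikzf3 chromosome 11, positions 11684962 to 11772930 and 98464610 to 98546031. Clec16a lies on chromosome 16, positions 10545309 to 10744878, and Tagap and Ubash3a on chromosome 17, positions 7926000 to 7934897 and 31207868 to 31259681. Ubash3a overlaps Rsph1, Tagap overlaps Gm1604a and Clec16a overlaps Gm15558, which were counted as genes of their own, so reads in the shared stretches are uncertain.

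Of the 9 genes, Ikzf3 varied most across the 6 populations of lineage and CD62L, with a 5.45-fold range between the highest and lowest mean, followed by Cd226 (2.98-fold), Ptpn22 (2.72-fold), Ubash3a (2.19-fold), Ikzf1 (2.12-fold) and Sh2b3 (2.08-fold). Tagap (1.45-fold), Clec16a (1.23-fold) and Ptpn2 (1.205-fold) varied least. UMIs were not scaled by gene length, so levels are compared between populations and not between genes. A sum does not tell more cells with the transcript from more transcript per cell.

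**Figure D1:**
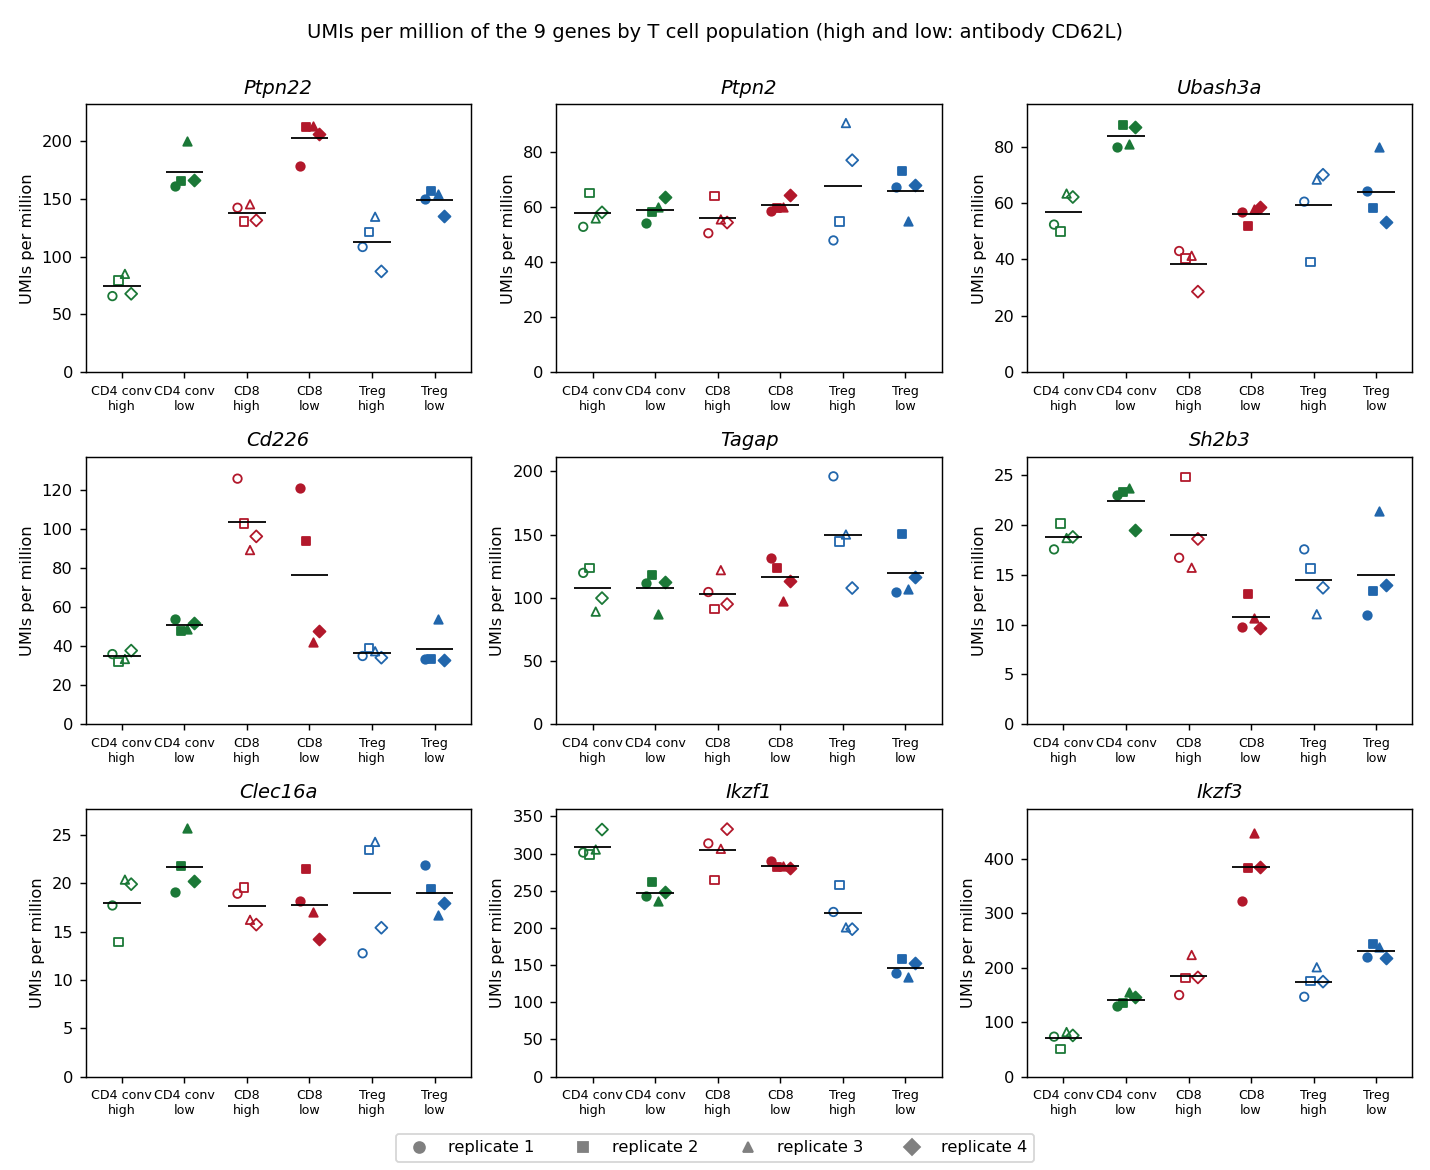
Level of each gene (y axis, CPM, starting at 0) in the 6 populations of lineage and antibody CD62L (x axis). Points are the 4 libraries, open for CD62L-high and filled for CD62L-low, and the bar is their mean. Ikzf3 in CD62L-low CD8 cells lies above all other T cell populations in every library, while the points of Ptpn2, Tagap and Clec16a overlap throughout.

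UMI sums per population and library were compared with edgeR's quasi-likelihood test over all genes, with the library as a block, and a gene was called at a Benjamini-Hochberg adjusted p under 0.05. Differences are log2 fold changes with their SE, and n = 4 libraries unless stated. Between CD62L-low and CD62L-high cells, 5 of the 9 genes passed among CD4 conventional cells, where 44.7% of 11084 genes passed. Another 5 of 9 passed among CD8 cells (37.8% of 9942 genes) and 1 of 9 among Treg (5.19% of 8050). Between CD8 and CD4 conventional cells, 5 of 9 passed when both were CD62L-low (40.2% of 10975 genes) and 4 of 9 when both were CD62L-high (17.1% of 9558). Treg differed from CD4 conventional cells in 6 of 9 genes when CD62L-low (30.4% of 10605) and in 3 of 9 when CD62L-high (19.5% of 8811). Expanded against single clones gave 5 of 9 among CD4 conventional cells with low CD62L (29.7% of 10000), 3 of 9 among such CD8 cells (36.6% of 8834) and 0 of 8 among such Treg (0.302% of 7614). Whether the shares of the 9 genes differ from these backgrounds was not tested, and the results are those of single genes. Of the 40 calls, all had the same sign in replicates 1 and 2 and in replicates 3 and 4 when each pair was fitted alone. The calls were chosen on these same libraries, so agreement in sign was likely in advance and is not independent support.

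Ptpn22, the phosphatase of the receptor-proximal kinases, was lowest in CD62L-high CD4 conventional cells and higher in their CD62L-low counterparts. Replicates 1 to 4 gave 65.8, 79.4, 85.1 and 67.8 CPM when CD62L was high and 161, 165, 200.04 and 166 when it was low. The groups did not overlap, and the log2 fold change was 1.10 ± 0.06 (SE, edgeR adjusted p = 1.4e-09), or 1.07 in replicates 1 and 2 and 1.15 in replicates 3 and 4. CD8 cells gave 142, 130.4, 145 and 131 when CD62L-high and 179, 212, 213 and 206 when CD62L-low, again without overlap, with a difference of 0.44 ± 0.09 (SE, edgeR adjusted p = 0.00236). In Treg the values were 108, 121, 135 and 87.2 and 149.8, 157, 154 and 136, also without overlap, with a difference of 0.36 ± 0.13 (SE, edgeR adjusted p = 0.127) that did not pass, whereas without cycling cells it was 0.75 and passed.

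The CD62L difference of Ptpn22 was smaller in CD8 cells and in Treg than in CD4 conventional cells, in all 4 libraries each time. The difference of these differences was −0.65 ± 0.11 (SE, edgeR adjusted p = 0.00126) for CD8 cells and −0.69 ± 0.13 (SE, edgeR adjusted p = 0.00192) for Treg. In the tests of such differences 4.3% and 4.51% of all genes passed. The CD8 value stayed close when each cell was thinned to 1000 UMIs (−0.58) but did not pass (edgeR adjusted p = 0.0995), while the Treg value was −0.30 (edgeR adjusted p = 0.878). CD62L-high CD8 cells exceeded CD62L-high CD4 conventional cells in Ptpn22 by 0.93 ± 0.08 (SE, edgeR adjusted p = 1.24e-08). Among CD62L-low cells the ranges of CD8 and CD4 conventional cells overlapped (179 to 213 and 161 to 200.04), and the difference of 0.27 ± 0.07 (SE, edgeR adjusted p = 0.0123) was lost without replicate 2 or 4. Treg stood −0.24 ± 0.07 (edgeR adjusted p = 0.00817) from CD4 conventional cells among CD62L-low cells and 0.48 ± 0.14 (edgeR adjusted p = 0.0186) among CD62L-high cells. Both Treg calls were lost in several alternatives, among them thinned cells, where the second value was 0.08.

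Ubash3a, the other inhibitor of receptor signals, was highest in CD62L-low CD4 conventional cells, at 79.9, 87.6, 81.2 and 86.9 CPM in replicates 1 to 4. Their CD62L-high counterparts had 52.4, 49.99, 63.4 and 62.2, below every CD62L-low value, with a difference of 0.42 ± 0.07 (SE, edgeR adjusted p = 0.000193). CD8 cells were lower, at 43.0, 40.4, 41.3 and 28.6 when CD62L-high and 56.7, 51.8, 57.9 and 58.7 when CD62L-low, without overlap between these groups. The CD62L difference in CD8 cells was 0.45 ± 0.13 (SE, edgeR adjusted p = 0.016), and it was 0.28 in replicates 1 and 2 and 0.62 in replicates 3 and 4. It passed in 14 of 18 alternatives, and the call was lost without replicate 4, among others. CD8 cells lay below CD4 conventional cells, with log2 differences of −0.53 ± 0.08 (SE, edgeR adjusted p = 0.000683) among CD62L-low and −0.54 ± 0.12 (SE, edgeR adjusted p = 0.00318) among CD62L-high cells. The second was −0.28 in replicates 1 and 2 and −0.81 in replicates 3 and 4, and it did not pass in the first pair (edgeR adjusted p = 0.451) or with DESeq2 (adjusted p = 0.0999). Treg had 53.2 to 79.8 when CD62L-low and 39.1 to 70.1 when CD62L-high, and the first group lay below CD62L-low CD4 conventional cells (log2 difference −0.46 ± 0.10, edgeR adjusted p = 0.00142). Without cycling cells this difference was −0.29 and did not pass (edgeR adjusted p = 0.0648). Unlike that of Ptpn22, the level of Ubash3a in B cell barcodes was near zero, 0.619 to 1.27 CPM, against 19.0 to 43.3 for Ptpn22.

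Ptpn2, the phosphatase of Janus kinases and STATs, passed in none of the comparisons, by edgeR. Its means ran from 56.0 ± 5.68 CPM in CD62L-high CD8 cells to 67.5 ± 19.7 (SD, n = 4) in CD62L-high Treg, and all neighbouring ranges overlapped. CD62L-low and CD62L-high CD4 conventional cells had 54.1, 58.1, 60.1 and 63.7 and 52.7, 64.9, 55.8 and 58.0 in replicates 1 to 4. The nominal 95% interval of their log2 difference was −0.23 to 0.06, and for CD8 cells it was −0.19 to 0.23. For Treg, with fewer cells, it was wider, −0.48 to 0.28. These intervals use a normal quantile of the SE, so with so few libraries they are too narrow for a full 95%.

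**Figure D2:**
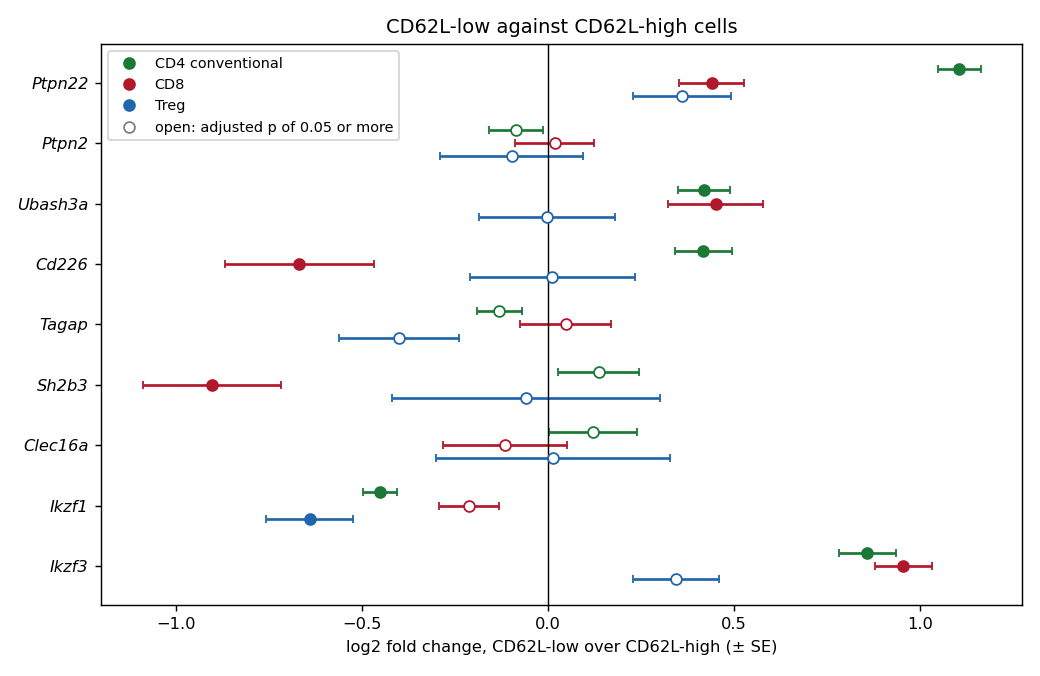
Log2 fold change of CD62L-low over CD62L-high cells (x axis, with SE as bars) for each gene (y axis) in CD4 conventional cells, CD8 cells and Treg. Filled points passed at an adjusted p under 0.05, open points did not. Ptpn22 and Ikzf3 lie on the CD62L-low side in all 3 lineages, Ikzf1 on the CD62L-high side, and Cd226 on opposite sides in CD4 conventional and CD8 cells.

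Cd226, the activating receptor, was the gene that set CD62L-high CD8 cells furthest apart from CD62L-high CD4 conventional cells among the 9. Replicates 1 to 4 gave 126, 103, 89.4 and 96.4 CPM in the former and 36.0, 32.0, 33.5 and 37.8 in the latter. The groups were far from overlapping, with a log2 difference of 1.59 ± 0.10 (SE, edgeR adjusted p = 3.1e-11). CD62L-low CD4 conventional cells had 54.3, 47.8, 48.9 and 52.0, above every CD62L-high value, a difference of 0.42 ± 0.08 (SE, edgeR adjusted p = 0.000436). Treg had 33.2 to 53.8 when CD62L-low and 34.2 to 39.1 when CD62L-high, and the log2 difference of CD62L-low Treg from CD4 conventional cells, −0.46 ± 0.12 (SE, edgeR adjusted p = 0.00679), was negative in 3 of 4 libraries. Without cycling cells it was −0.22 and did not pass. No Cd226 UMI was found among 4945327 UMIs of 1160 B cell barcodes, which allows up to 0.607 CPM (3 counts over the 4 libraries, counting error only).

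CD62L-low CD8 cells split by library for Cd226: 121, 94.0, 42.5 and 48.1 CPM in replicates 1 to 4. The first pair lay near its CD62L-high values and the second pair at less than these by a wide margin. The pooled difference of CD62L-low from CD62L-high CD8 cells was −0.67 ± 0.20 (SE, edgeR adjusted p = 0.0369), negative in 4 of 4 libraries, but it was −0.19 in replicates 1 and 2 (edgeR adjusted p = 0.388) and −1.14 in replicates 3 and 4 (edgeR adjusted p = 6.06e-05). Without replicate 3 it was −0.50, without replicate 4 −0.53, and neither passed. Cells called cycling (2 or more UMIs summed over 8 cell cycle genes) made up 17.1%, 16.1%, 36.0% and 32.7% of CD62L-low CD8 cells in replicates 1 to 4. The largest clones of CD62L-low CD8 cells held 41, 42, 153 and 73 cells. Without cycling cells the difference of CD62L-low from CD62L-high CD8 cells was −0.17, and with 1 cell per clonotype −0.28, neither of which passed. The CD62L effect of CD8 cells minus that of CD4 conventional cells was −1.04 ± 0.35 (SE, edgeR adjusted p = 0.138) and did not pass, but it passed without cycling cells (−0.78), with 1 cell per clonotype (−0.93), with DESeq2 (−1.02) and in each pair of replicates alone (−0.68 and −1.49). Against CD62L-low CD4 conventional cells, CD62L-low CD8 cells differed by 0.51 ± 0.31 (edgeR adjusted p = 0.271), positive in 2 of 4 libraries. This difference was 1.10 in replicates 1 and 2 and −0.12 in replicates 3 and 4, and it passed in the first pair, without cycling cells (0.86, edgeR adjusted p = 0.00243) and with 1 cell per clonotype (0.69, edgeR adjusted p = 0.0339).

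Sh2b3, the adaptor that limits cytokine signals, was a low transcript, lowest in CD62L-low CD8 cells. These had 9.72, 13.0, 10.6 and 9.65 CPM in replicates 1 to 4, against 16.7, 24.8, 15.7 and 18.6 in CD62L-high CD8 cells and 23.0, 23.3, 23.6 and 19.5 in CD62L-low CD4 conventional cells. They lay below every value of both groups, with log2 differences of −0.90 ± 0.19 (SE, edgeR adjusted p = 0.0029) and −1.01 ± 0.13 (SE, edgeR adjusted p = 0.000272). The first difference was −0.27 without cycling cells and −0.54 with 1 cell per clonotype, and did not pass. The second was −0.49 without cycling cells, and in thinned cells it was −0.64 and did not pass (edgeR adjusted p = 0.0915). In CD4 conventional cells the CD62L difference was 0.14 ± 0.11 (edgeR adjusted p = 0.334), and that of CD8 cells differed from it by −0.99 ± 0.19 (SE, edgeR adjusted p = 0.00528), negative in 4 of 4 libraries. This call passed in only 11 of 18 alternatives. It too was lost without cycling cells (−0.56), in thinned cells (−0.87) and without replicate 1 or 4, among others. CD62L-low Treg had 11.0, 13.4, 21.3 and 14.0, with a log2 difference from CD4 conventional cells of −0.65 ± 0.17 (SE, edgeR adjusted p = 0.0051), a call lost without cycling cells (−0.28) and with DESeq2. B cell barcodes had 56.9 to 68.7, above all T cell populations.

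Tagap, the GTPase-activating protein, passed in no comparison of lineages or CD62L states with the settings above. CD62L-high Treg differed from CD4 conventional cells by 0.36 ± 0.14 (edgeR adjusted p = 0.0706), positive in 4 of 4 libraries, and the difference passed without cycling cells (0.85, edgeR adjusted p = 0.000289), in thinned cells (0.75), without replicate 4 (0.48) and with no B cell marker filter (0.37). CD62L-low Treg differed by 0.12 ± 0.08 (edgeR adjusted p = 0.262), and without cycling cells by 0.52 (edgeR adjusted p = 9.89e-06). Mean levels of Tagap ran from 103 ± 13.6 CPM in CD62L-high CD8 cells to 149.6 ± 36.2 (SD, n = 4) in CD62L-high Treg, where the libraries spread from 108 to 196. CD62L-low CD4 conventional cells had 112, 118, 87.5 and 113 in replicates 1 to 4. The gene Tagap1, which shares a synonym with Tagap, was counted apart, at 14.7 to 17.9 in the same cells. Clec16a, the mitophagy regulator, passed in none of the comparisons over 4 libraries, at means of 17.6 ± 1.92 in CD62L-high CD8 cells to 21.7 ± 2.88 (SD, n = 4) in CD62L-low CD4 conventional cells. The nominal 95% interval of its CD62L difference was −0.11 to 0.35 in CD4 conventional cells and −0.44 to 0.21 in CD8 cells.

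Among CD4 conventional cells, Ikzf3 was higher and Ikzf1 lower when CD62L was low. Ikzf3 was highest in CD62L-low CD8 cells, at 323, 382, 448 and 385 CPM in replicates 1 to 4, and CD62L-high CD8 cells had 149.8, 181, 223 and 182. CD4 conventional cells had 129, 136, 155 and 146 when CD62L-low and 73.4, 51.0, 81.9 and 75.7 when CD62L-high. Neither pair of groups overlapped, and the CD62L differences were 0.95 ± 0.08 (SE, edgeR adjusted p = 1.38e-05) in CD8 and 0.86 ± 0.08 (SE, edgeR adjusted p = 2.27e-06) in CD4 conventional cells. CD8 cells exceeded CD4 conventional cells by 1.48 ± 0.06 (SE, edgeR adjusted p = 2.8e-07) among CD62L-low and 1.36 ± 0.10 (SE, edgeR adjusted p = 3.16e-07) among CD62L-high cells. Treg had 219, 244, 238 and 219 when CD62L-low and 147, 176, 201 and 174 when CD62L-high. They exceeded CD4 conventional cells by 0.67 ± 0.06 (SE, edgeR adjusted p = 1.59e-08) and 1.17 ± 0.14 (SE, edgeR adjusted p = 1.78e-06), whereas their own CD62L difference, 0.34 ± 0.12 (SE, edgeR adjusted p = 0.0919), did not pass with all cells and passed without cycling cells (0.43). All of the called Ikzf3 differences in lineage and CD62L were also called in every alternative run.

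Ikzf1 was lowest in CD62L-low Treg, at 139, 159, 135 and 152 CPM in replicates 1 to 4. CD62L-high Treg had 221, 258, 201 and 198, all above these, and the difference was −0.64 ± 0.12 (SE, edgeR adjusted p = 0.00102). It passed in 15 of 18 alternatives, but not in replicates 3 and 4 alone (−0.52), in thinned cells or with paired receptors only. CD4 conventional cells had 243, 262, 236 and 249 when CD62L-low and 301, 299, 305 and 332 when CD62L-high, a difference of −0.45 ± 0.05 (SE, edgeR adjusted p = 1.21e-06) without overlap. In CD8 cells the values were 290.01, 282, 283 and 281 and 314, 265, 306 and 333, with overlap, and the difference of −0.21 ± 0.08 (SE, edgeR adjusted p = 0.0586) did not pass, though it did without replicate 2 (−0.27) and in replicates 3 and 4 alone (−0.28). Treg lay below CD4 conventional cells, with log2 differences of −0.79 ± 0.06 (SE, edgeR adjusted p = 5.31e-10) among CD62L-low and −0.63 ± 0.12 (SE, edgeR adjusted p = 0.000457) among CD62L-high cells. CD62L-low CD8 cells lay above CD62L-low CD4 conventional cells by 0.24 ± 0.06 (SE, edgeR adjusted p = 0.0132). This call passed in 13 of 18 alternatives, and was lost without replicate 1, 3 or 4 and in thinned cells, among others.

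The ratio of Ikzf3 to Ikzf1 UMIs spread more than either gene alone. Among CD4 conventional cells it was 0.227 ± 0.0414 when CD62L was high and 0.573 ± 0.0641 when it was low. For CD8 cells these ratios were 0.610 ± 0.117 and 1.36 ± 0.192, and for Treg 0.806 ± 0.162 and 1.58 ± 0.141 (SD, n = 4). In B cell barcodes, where Ikzf3 reached 487 to 541 CPM, it was 2.38 ± 0.159. The ratio compares UMIs without correction for length, so only its change across populations can be read.

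**Figure D3:**
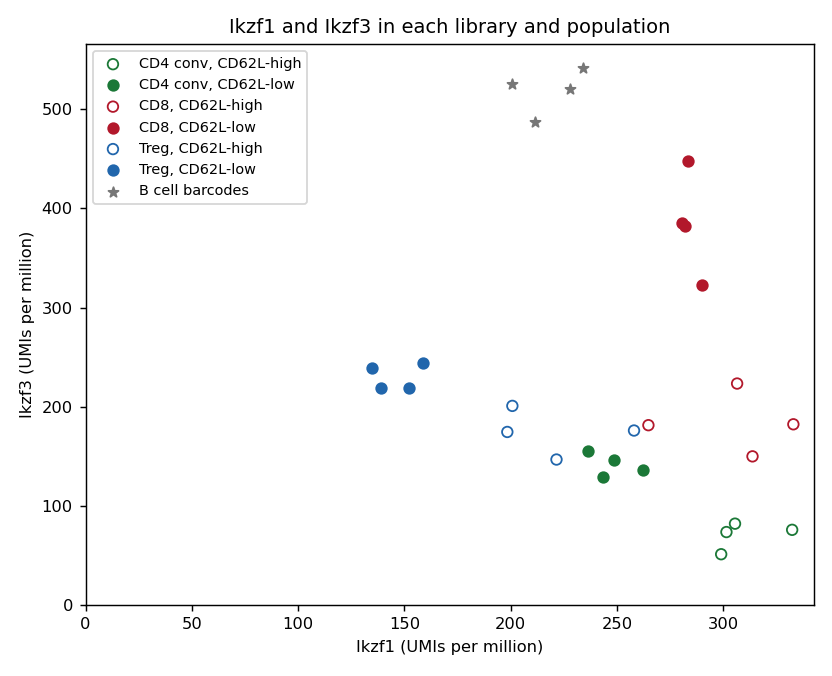
Ikzf3 (y axis) against Ikzf1 (x axis), both in CPM from 0, in each population and library. Points are libraries, open for CD62L-high and filled for CD62L-low T cells, and stars are B cell barcodes. CD62L-low Treg lie at the left with the lowest Ikzf1, CD62L-low CD8 cells highest in Ikzf3 among T cells, and CD62L-high CD4 conventional cells at the lower right.

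Clone size was compared within CD62L-low cells with a paired receptor. In CD4 conventional cells, Cd226 was lower in expanded clones, with 45.3, 27.6, 33.6 and 33.5 CPM in replicates 1 to 4 against 63.5, 71.2, 57.6 and 74.8 in single clones. The groups did not overlap, and the log2 difference was −1.03 ± 0.13 (SE, edgeR adjusted p = 6.57e-05), or −1.02 in replicates 1 and 2 and −1.04 in replicates 3 and 4. Ikzf3 was higher in expanded clones, 149, 169, 184 and 167 against 95.8, 90.5, 108 and 118, by 0.62 ± 0.07 (SE, edgeR adjusted p = 7.6e-06), and Ikzf1 was lower, 218, 243, 208 and 224 against 277, 286, 259 and 270.1, with a difference of −0.37 ± 0.06 (SE, edgeR adjusted p = 0.000156). Ptpn22 was higher, 176, 214, 221 and 182 against 142, 120.1, 172 and 136, by 0.40 ± 0.08 (SE, edgeR adjusted p = 0.000933). For all 3 genes single and expanded values did not overlap. The Ikzf1 call passed in 18 of 19 alternatives and was lost in thinned cells (edgeR adjusted p = 0.104). Ubash3a, which differed by CD62L, had 80.4 to 90.0 in expanded and 75.8 to 87.2 in single clones, with a nominal 95% interval of the difference of −0.18 to 0.12. Cycling cells made up 12.1% to 19.5% of expanded and 4.50% to 7.97% of single cells. Leaving them out gave differences in Ptpn22, Cd226 and Ikzf3 of 0.61, −0.88 and 0.74. Expanded cells were deeper: in replicate 1, 389 expanded cells held 2937036 UMIs and 389 single cells 2046198. In replicate 2, 453 expanded cells held 3221244 and 556 single cells 2640200.

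Among CD8 cells with low CD62L, expanded clones had 393, 444, 459.9 and 402 CPM of Ikzf3 in replicates 1 to 4 and single clones 220.02, 223, 300.2 and 237, a difference of 0.70 ± 0.09 (SE, edgeR adjusted p = 2.72e-06). Ikzf1 was 262, 249, 276 and 273 against 349.99, 319.9, 309 and 321, with a difference of −0.40 ± 0.08 (SE, edgeR adjusted p = 0.000898). The ranges of both genes were apart, and with 1 cell per clonotype the Ikzf1 difference was −0.26 and did not pass. The Ikzf3 to Ikzf1 ratio was 1.60 ± 0.147 in expanded and 0.759 ± 0.148 in single CD8 cells, and 0.751 ± 0.0912 and 0.379 ± 0.0563 in CD4 conventional cells (SD, n = 4). Ptpn22 differed by 0.15 ± 0.09 (SE, edgeR adjusted p = 0.229) and did not pass, yet without cycling cells the difference was 0.52 and passed (edgeR adjusted p = 0.000576). Cycling cells made up 30.6% to 50.5% of expanded and 5.80% to 10.8% of single CD8 cells. Expanded cells were also deeper. In replicate 1, 143 expanded CD8 cells held 1730275 UMIs and 150 single cells 977176. In replicate 2, 196 expanded cells held 2012126 and 173 single cells 1056708.

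Cd226 in CD62L-low CD8 clones again depended on the library. Single clones had 136, 96.5, 101 and 95.9 CPM in replicates 1 to 4, and expanded clones 113, 85.5, 33.8 and 37.2. Expanded clones had less in 4 of 4 libraries, with log2 differences of −0.34 in replicates 1 and 2 (edgeR adjusted p = 0.0959) and −1.57 in replicates 3 and 4 (edgeR adjusted p = 4.85e-12). The pooled difference, −0.85 ± 0.29 (SE, edgeR adjusted p = 0.0818), did not pass, though it did in several alternatives, among them thinned cells (−0.83) and DESeq2 (−0.90), and with 1 cell per clonotype it was −0.31 (edgeR adjusted p = 0.512). In replicates 3 and 4 the low values lay in the expanded clones, while the single clones of these libraries were near their CD62L-high values.

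**Figure D4:**
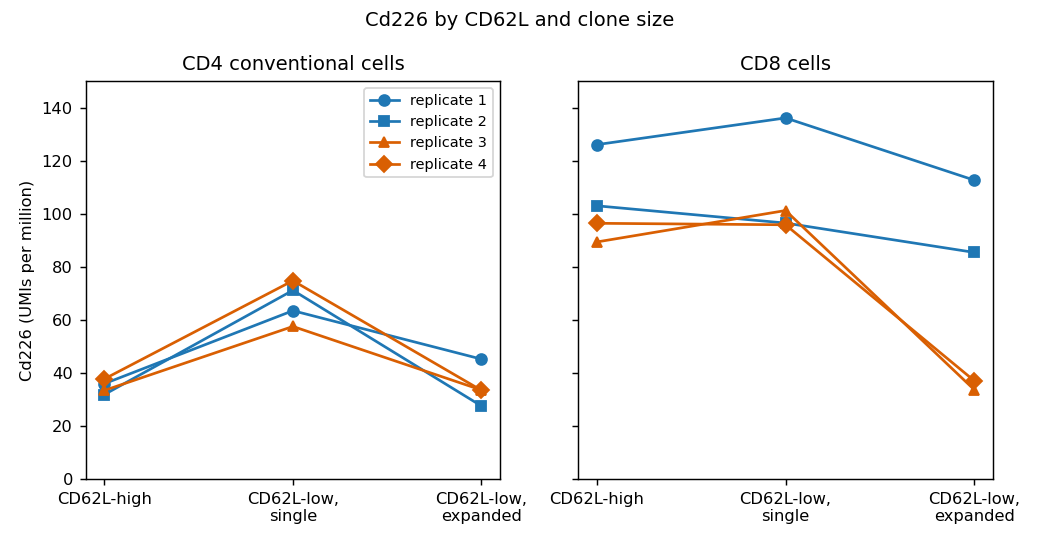
Cd226 in CPM (y axis, from 0) in CD62L-high cells and in single and expanded CD62L-low clones (x axis) of CD4 conventional cells (left) and CD8 cells (right). Lines join the populations of a library, replicates 1 and 2 in blue and 3 and 4 in orange. In CD4 conventional cells all 4 lines drop from single to expanded clones, and in CD8 cells the drop is steep in replicates 3 and 4 alone.

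Tagap was higher in expanded than in single clones by 0.29 ± 0.09 (SE, edgeR adjusted p = 0.0252) in CD4 conventional and 0.51 ± 0.14 (SE, edgeR adjusted p = 0.00702) in CD8 cells, positive in 3 of 4 libraries each. In CD8 cells expanded clones had 157, 163, 94.8 and 111 CPM in replicates 1 to 4 and single clones 95.2, 84.2, 94.1 and 71.5, so replicate 3 showed hardly any difference. Both calls were lost with DESeq2, without the library block and without replicate 2, and that in CD4 conventional cells turned to −0.04 (edgeR adjusted p = 0.91) in thinned cells. In CD62L-low Treg, replicate 3 had 18 expanded cells, under the minimum of 20, so n = 3. There 0 of 8 genes passed by edgeR or DESeq2, and Sh2b3 was too low to be tested. At an unadjusted edgeR p under 0.05 there were 3 of the 8, against 561 of 7614 genes. Cd226 differed by −0.81 ± 0.29 and Ikzf3 by 0.60 ± 0.20, with edgeR adjusted p of 0.489 and 0.439. Between CD8 and CD4 conventional cells the effect of clone size differed for 0 of 9 genes by edgeR or DESeq2 (6.83% of 10316 genes passed by edgeR). At an unadjusted edgeR p under 0.05 there was 1 of the 9, against 2171 of the 10316 genes.

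**Figure D5:**
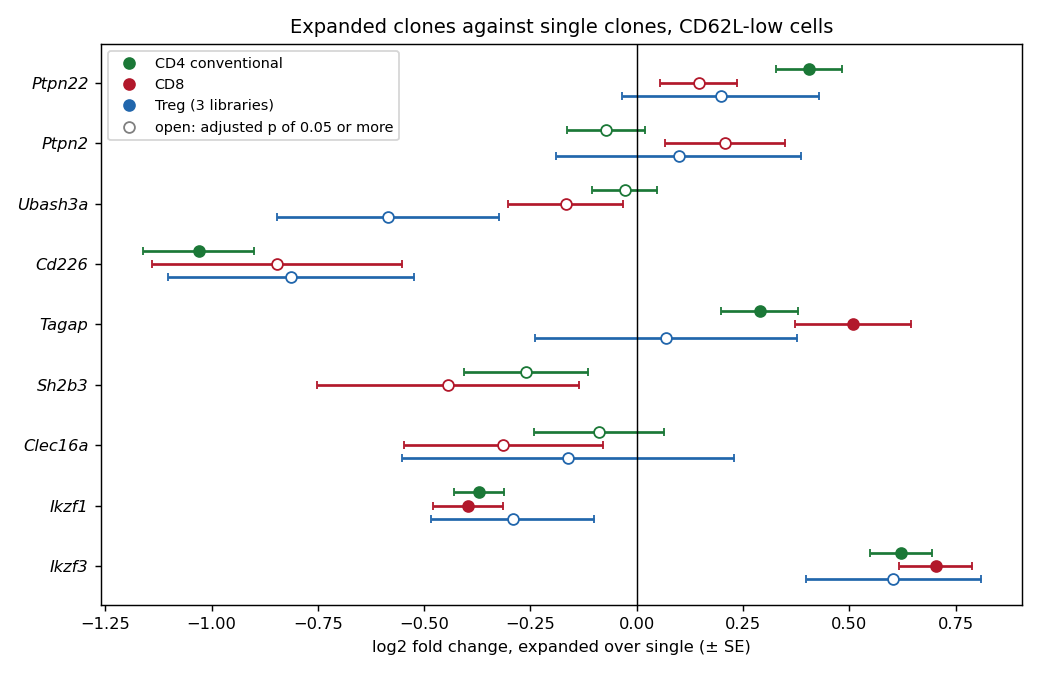
Log2 fold change of expanded over single clones within CD62L-low cells (x axis, with SE as bars) for each gene (y axis) in CD4 conventional cells, CD8 cells and Treg (3 libraries). Filled points passed at an adjusted p under 0.05. Ikzf3 lies to the right and Cd226 and Ikzf1 to the left in all 3 lineages, though none passed in Treg.

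The genes around the 9 in the same pathways were counted from lists of known members. Whether the shares of these lists differ from those of all genes was not tested. Of the other genes at type 1 diabetes loci, 7 higher and 4 lower of 22 passed by CD62L in CD4 conventional cells (44.7% of all genes). Their median log2 difference was 0.025 against −0.013 over all genes. Bach2, a repressor that keeps T cells quiescent, was lower in CD62L-low cells (log2 difference −1.70 ± 0.07). Stat4, a mediator of cytokine signals, was higher by 0.96 ± 0.06, and Rasgrp1, an activator of Ras, was lower (−0.71 ± 0.06). In CD8 cells 4 higher and 6 lower of 20 passed (37.8% of all genes), with Bach2 at −1.51 ± 0.16. By clone size 5 higher and 5 lower of 22 passed in CD4 conventional cells (29.7% of all genes). The count was 3 higher and 6 lower of 18 in CD8 cells (36.6% of all genes). Ctla4, the inhibitory receptor, was higher in expanded clones by 0.94 ± 0.09 and 1.61 ± 0.15, and Bach2 was lower (−1.35 ± 0.11 and −2.25 ± 0.18).

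Ptpn22 and Ubash3a act in proximal receptor signalling. Of 20 such genes, 8 higher and 5 lower passed by CD62L in CD4 conventional cells (44.7% of all genes). In CD8 cells 4 higher and 8 lower of 20 passed (37.8% of all genes). Fyn, a Src family kinase, was higher in CD62L-low cells by 0.57 ± 0.04 and 0.68 ± 0.07. Ubash3b, the paralog of Ubash3a, was higher in expanded CD4 conventional clones by 0.69 ± 0.11. Ptpn2 and Sh2b3 act among the JAK-STAT genes. Of 18 of these, 6 higher and 7 lower passed by CD62L in CD4 conventional cells (44.7% of all genes). Ptpn11, another phosphatase of cytokine signals, was higher in CD62L-low cells by 1.92 ± 0.06 and Socs2, a feedback inhibitor, by 2.56 ± 0.17. Sh2b1, the relative of Sh2b3, was also higher there, by 0.40 ± 0.08, and its CD62L difference in CD8 cells was below this, with a difference of −0.67 ± 0.13 (edgeR adjusted p = 0.00535).

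In the receptor family of Cd226, 3 higher and 2 lower of 5 passed by CD62L in CD4 conventional cells (44.7% of all genes). The count was 2 higher and 3 lower of 5 in CD8 cells (37.8% of all genes) and 2 higher and 1 lower of 4 in Treg (5.19% of all genes). Tigit, the inhibitory counterpart of Cd226, was higher in CD62L-low cells by 3.04 ± 0.24 in CD4 conventional cells, 2.85 ± 0.42 in CD8 cells and 1.28 ± 0.11 in Treg (edgeR adjusted p = 0.00171, 0.00946 and 1.35e-07). By clone size Tigit was higher and Cd226 and Cd96, another receptor of the family, were lower in expanded CD4 conventional clones, with Tigit at 1.80 ± 0.37 and Cd96 at −0.84 ± 0.08. In CD8 clones Tigit was at 2.23 ± 0.12 and Cd96 at −0.73 ± 0.16. Of the other Ikaros factors, Ikzf2 (Helios) and Ikzf4 (Eos) were higher in CD62L-low Treg than in CD4 conventional cells by 1.77 ± 0.08 and 2.64 ± 0.12. Ikzf2 was also higher in CD62L-low cells, by 1.72 ± 0.20 in CD4 conventional and 1.75 ± 0.30 in CD8 cells. It is among the Treg markers, and what part Treg without a captured Foxp3 UMI have in its CD4 conventional value was not tested. Of autophagy genes, the field of Clec16a, 5 higher and 3 lower of 17 passed by CD62L in CD4 conventional cells (44.7% of all genes). Gabarapl1 was at 1.24 ± 0.23 and Lamp1 at −0.32 ± 0.06.

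For genes of at least 20 CPM on average, the most similar profiles over the 24 sums of 6 populations and 4 libraries were sought among 6483 genes, by Pearson's r of log2 levels centred per library. These sums share libraries, so the values are descriptions. Ptpn22 was most like Cxcr6 (r = 0.94), Myo1f (r = 0.94), Nsmaf (r = 0.91), and Ikzf3 most like Hist1h1d (r = 0.94), Racgap1 (r = 0.94). Ikzf1 was most like Rasgrp2 (r = 0.94), Pde3b (r = 0.93), Rpl27 (r = 0.93), Cd226 most like Ostf1 (r = 0.87), Nlrc3 (r = 0.87), Pde7a (r = 0.86), and Ubash3a most like Sptssa (r = 0.87), Tnfsf11 (r = 0.86), Cd28 (r = 0.85). For Tagap these were E430024P14Rik (r = 0.82), Mrpl43 (r = 0.71), Csk (r = 0.71), and for Ptpn2 Ptp4a1 (r = 0.82), Senp1 (r = 0.81), Ubxn1 (r = 0.79). Among the 7 of the 9 genes that reached this level, the closest pair was Ptpn22 and Ikzf3, with r = 0.82, and Ikzf1 and Ikzf3 gave −0.27. Racgap1 and Hist1h1d are genes of dividing cells. Summed cycling markers over the same populations ran from 8.25 to 334 CPM in CD62L-high CD4 conventional cells and from 1221 to 1977 in CD62L-low CD8 cells. Without cycling cells the CD62L difference of Ikzf3 was 1.27 in CD8 and 1.04 in CD4 conventional cells. What part cycling has in the profile of Ikzf3 was not tested.

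Myeloid markers together lay at 315 to 614 CPM in CD62L-high and 66.5 to 219 in CD62L-low CD4 conventional cells. Leaving out barcodes with 3 or more of their UMIs lost 0 of the 40 calls. Treg were chosen by a Foxp3 UMI, and their barcodes were deeper, with medians of 3822 to 5445 UMIs in CD62L-low Treg against 3065 to 4040 in CD62L-low CD4 conventional cells. Differences of Treg from CD4 conventional cells in Ubash3a, Ptpn22, Sh2b3 and Cd226 did not pass in cells thinned to 1000 UMIs, where those of Ikzf1 and Ikzf3 among CD62L-low cells were −0.80 and 0.47.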

How the data were processed

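Single-cell libraries of islet T cells from 4 replicates were analysed. The deposited matrices hold UMI counts of genes and of 4 antibodies per barcode, written by Cell Ranger 4.0.0 per the file headers. Per the submitters' processing notes the build was mm10 and Seurat was used, with no role given. Receptor contigs came with UMI and read counts as deposited by the authors. A barcode entered when it held 500 or more UMIs from 300 or more genes, a mitochondrial share of 8% or less, a CD3 gene UMI and no second TRB chain. To remove doublets with B cells, barcodes with 3 or more B cell marker UMIs were left out, and no doublet caller was run. Barcodes with such markers, no CD3 UMI and no receptor chain served as a background.

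UMIs were summed per population and library, for populations of at least 20 cells, and tested with edgeR 4.0.16 (filterByExpr, TMM, robust quasi-likelihood fit) in R 4.3.3, over all genes passing the filter and with the replicate as a block: each library holds all populations, so they are paired by design. Same-replicate deviations correlated at −0.14 to 0.555. DESeq2 1.42.0 was an alternative, and the test was tried on simulated data. A call needs a Benjamini-Hochberg adjusted p under 0.05. Other alternatives changed the scaling, the filters, the gates, the cells or the libraries, and 3 (each pair of replicates alone, and no barcodes with 3 or more myeloid marker UMIs) were chosen after seeing the data. The 9 genes and all lists were chosen with earlier results of these data known. Named from each list were up to 3 genes with the smallest p, and for each of the 9 genes with a mean of at least 20 CPM the 3 with the highest correlation. Some of the genes and a list so chosen are not reported here. Depth is given with the results for the libraries and for some populations only. The limit set by a count of 0 covers counting error only, while the intervals of differences cover the spread between libraries. The latter use a normal quantile of the SE, are nominal and are too narrow for so few libraries.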

Additional observations from a re-analysis of the deposited data

Results flagged for a closer look

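In 7 of 99 groups of 4 libraries, 1 library lay outside the gap that Dixon's test allows at the 95% level, where chance gives about 1 in 20. Cd226 stood at 136 CPM in single CD62L-low CD8 clones of replicate 1, against 95.9 to 101 in the others, and at 53.8 in CD62L-low Treg of replicate 3, against 33.2 to 33.7. Ptpn22 was 200.04 in CD62L-low CD4 conventional cells of replicate 3, against 161 to 166. Replicate 4 was lowest in the other 4 groups. Clec16a was 12.2 there in single CD62L-low CD8 clones, against 19.5 to 20.8. Sh2b3 was 19.5 in CD62L-low CD4 conventional cells against 23.0 to 23.6, 15.0 in their expanded clones against 22.04 to 23.5, and 8.72 in single CD62L-low CD8 clones against 12.3 to 12.4.

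The CD62L difference was unlike between lineages by the test of the difference itself in 3 cases. That of Ptpn22 was −0.65 in CD8 and −0.69 in Treg relative to CD4 conventional cells (edgeR adjusted p = 0.00126 and 0.00192). These passed in 17 and 14 of 18 alternatives. The CD62L difference of Sh2b3 was −0.99 in CD8 relative to CD4 conventional cells (edgeR adjusted p = 0.00528), and this passed in 11 of 18 alternatives.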

How the results depend on the processing

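Of the 40 calls, 18 passed in every alternative run, and the replicate block, whose removal reflects the pairing of populations by library, changed 3: without it Cd226 by CD62L in CD8 cells (−0.57) and Tagap by clone size in CD4 conventional (0.30) and CD8 cells (0.48) did not pass. Among the called log2 differences 1 changed sign, that of Tagap by clone size in CD4 conventional cells, to −0.0439 in thinned cells, and 157 more sign changes were seen where neither value was called. The number of the 9 genes called moved by over 1.5 times as follows, and the cause was not tested. Thinning gave 3 in place of 5 for CD8 against CD4 conventional cells (CD62L-low), 2 in place of 6 for Treg against CD4 conventional cells (CD62L-low), 0 in place of 1 for CD62L in Treg, 3 in place of 5 for clone size in CD4 conventional cells, and 0 in place of 2 and 0 in place of 1 for the differences of the CD62L effect in CD8 and in Treg. Without cycling cells there were 3 for Treg against CD4 conventional cells (CD62L-low), 3 in place of 5 for CD62L in CD8 cells, 3 for CD62L in Treg and 1 in place of 0 for clone size in Treg. DESeq2 gave 3 for Treg against CD4 conventional cells (CD62L-low). Replicates 1 and 2 alone gave 1 in place of 3 for Treg against CD4 conventional cells (CD62L-high), 2 for CD62L in CD8 cells and 0 for the Treg difference of the CD62L effect, and replicates 3 and 4 alone gave 3 for Treg against CD4 conventional cells (CD62L-low), 0 for CD62L in Treg and 0 for that difference. With 1 cell per clonotype CD62L in CD8 cells gave 3. CD62L in Treg gave 2 with no filter on low counts and 0 with paired receptors only, and the Treg difference of the CD62L effect gave 2 with RLE scaling, no filter, stricter CD62L gates or no myeloid marker barcodes. Clone size in Treg gave 1 with no B cell marker filter and 3 with any CD62L count, which also gave 2 in place of 0 for the difference of the clone size effect. Leaving out each replicate in turn gave 3 to 4 for CD8 against CD4 conventional cells (CD62L-low), 3 to 6 for CD62L in CD8 cells, 0 to 1 for clone size in Treg and 1 to 2 for the CD8 difference of the CD62L effect. Over all genes, the calls by CD62L in CD4 conventional cells ranged from 2109 to 5352 around 4953, and those by clone size in CD8 cells from 641 to 5001 around 3230. Among CD62L-low cells those of CD8 against CD4 conventional cells ranged from 1399 to 5605 around 4412, and those of Treg from 897 to 3371 around 3221. By CD62L in Treg they ranged from 84 to 694 around 418. The counts of the 9 genes above are not set against the share of all genes in the same run, so they do not single out these genes.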
